A study of Mus musculus with 20 samples.

Results

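The cytosolic ribosomal protein genes were taken from a liver RNA-seq series as the gene names that begin with Rpl or Rps followed by a digit, together with Rplp0, Rplp1, Rplp2 and Rpsa. Names that contain -ps, which mark processed copies, and the Rps6k kinases were left out, which removed 307 and 9 names. Of the 94 names that matched, 87 had 10 or more estimated counts in 5 or more libraries and are the members described here, out of 34933 named genes in all. By name, 50 belong to the large subunit and 37 to the small subunit, and 9 are paralogs or look-alikes: Rpl22l1, Rpl36al, Rpl37rt, Rpl7l1, Rps12l1, Rps19bp1, Rps27l, Rps27rt and Rps4l. The 7 names that missed the minimum had 0 libraries with 10 counts. They were Rpl10l, Rpl32l, Rps3a3, Rpl6l, Rps3a2, Rpl3l and Rpl39l, with mean counts of 0 to 1.2 per library. Just inside the minimum was Rps23rg1, with a mean of 37.85 counts per library and a range of 12 to 61.

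The 20 libraries came from livers of WT mice with diet-induced obesity, so obesity is shared by every group and there was no lean group to compare. The 4 groups of 5 libraries had received vehicle, rosuvastatin, GGOH, or rosuvastatin together with GGOH, called the combination below. Rosuvastatin inhibits HMG-CoA reductase, the rate-limiting enzyme of cholesterol synthesis, and GGOH is the usual abbreviation of geranylgeraniol, an isoprenoid alcohol from a branch of the same pathway. The labels give no dose, duration, sex or age, and they number the livers 1 to 5 in each group without saying whether each number is a separate animal, so p-values measure the spread between these samples. The libraries were made from poly(A)-selected RNA and held between 8548120 counts (combination 3) and 18373913 counts. All 7 hepatocyte markers examined were detected, with a summed level of 46052 to 100701 CPM (counts scaled to a common total per library), in keeping with the labelled tissue.

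The cytosolic ribosome is built from ribosomal RNA and a single copy of most ribosomal proteins, so cells make the proteins in nearly equal numbers from genes scattered over the genome. Ribosomal protein mRNAs are among the most abundant in most tissues, and in liver they carry the translation capacity that secreted plasma proteins depend on. Many of them begin with a run of pyrimidines (C or T in the gene, the 5′ terminal oligopyrimidine or TOP motif) through which mTORC1 signalling and LARP1 control how much of the message is translated. TOP control acts mainly on translation and on mRNA stability, which poly(A) RNA-seq sees only in part.

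A pyrimidine run near the annotated start was found in 33 of the 65 members (50.8%) that had an entry in the RefSeq promoter table (build GRCm38.p6). The window searched was 30 bases long, from 10 bases before the start to 20 bases from the start onward. A run was 7 or more consecutive C or T letters on the coding strand, which reads as the mRNA does from the start onward. It was counted anywhere in the window, and in Rpl10a, Rpl19 and Rps27l it lay wholly before the annotated start. The number of members with a run is therefore not the number whose message begins with one. A run by the same rule was present in 21.3% of the 9946 tested genes with an entry and in 17.9% of all 32851 promoters of the table. Over the 76 member promoters, which include second starts, 34 (44.7%) held a run. The first set below shows some of the long runs and runs of members that the results turn on, and the second set shows members without one. Each is printed 5′ to 3′ on the coding strand, with the run in capitals.
Rpl27a, chr7:109519185-109519214, plus strand: cgtgagCTCCTCCCTTTTCCCTTTCTgcca
Rpl35, chr2:39005112-39005141, minus strand: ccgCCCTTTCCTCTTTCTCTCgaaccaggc
Rpl15, chr14:18270967-18270996, minus strand: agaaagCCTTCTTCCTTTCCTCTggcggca
Rps10, chr17:27635225-27635254, minus strand: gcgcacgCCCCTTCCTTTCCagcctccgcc
Rpl28, chr7:4792955-4792984, plus strand: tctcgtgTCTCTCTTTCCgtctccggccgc
Rps18, chr17:33955646-33955675, minus strand: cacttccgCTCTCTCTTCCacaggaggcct
Rplp2, chr7:141447641-141447670, plus strand: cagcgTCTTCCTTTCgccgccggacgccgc
Rps6, chr4:86857348-86857377, minus strand: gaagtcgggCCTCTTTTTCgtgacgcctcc
Rpl22l1, chr3:28805498-28805527, plus strand: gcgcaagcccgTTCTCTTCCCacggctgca
Rps27, chr3:90213629-90213658, minus strand: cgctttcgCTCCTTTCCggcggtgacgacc
Rps27rt, chr9:114982720-114982749, minus strand: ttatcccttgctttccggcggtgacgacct
Rpl4, chr9:64173377-64173406, plus strand: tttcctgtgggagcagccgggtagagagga
Rpl23, chr11:97782420-97782449, minus strand: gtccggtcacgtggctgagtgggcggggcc
Rpl41, chr10:128549149-128549178, minus strand: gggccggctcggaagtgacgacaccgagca
Rps19bp1, chr15:80264287-80264316, minus strand: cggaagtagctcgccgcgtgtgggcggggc
Rpl7l1, chr17:46782637-46782666, minus strand: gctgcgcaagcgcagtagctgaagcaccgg
The run was 20 bases long in Rpl27a, 18 in Rpl35 and 17 in Rpl15, and 9 in Rps27. Not printed are Rpl7a, with a run of 17 bases, and Rpl13a and Rpl14, each with 14. Among the look-alikes with an entry, 2 of 7 held a run, against 31 of the other 58 members. Rps27rt, on another chromosome than Rps27, shares 19 bases of this window with it, ctttccggcggtgacgacc, but its longest run in the window is 6 bases. A run near an annotated start is a description of the letters, and a missing run says only that these letters are not in this window.

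In level, members with and without a run were close: the median of their mean levels was 522 TPM (transcripts scaled for length and to a common total per library) with a run and 444 TPM without. The median SD between libraries within a group was 0.67 on the log2 CPM scale with a run and 0.58 without. The median transcript length was 681 nucleotides (nt) in the former and 862.5 nt in the latter, so the classes also differed in length.

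The members stood far above most of the liver transcriptome. Their median of mean TPM was 502, with an interquartile range of 288 to 709, against a median of 4.12 TPM over all genes tested, and 76 of the 87 exceeded 100 TPM in every library. Small-subunit members had a median of 631 TPM and large-subunit members a median of 382 TPM. The 8 highest members by mean TPM were Rps24 (2169 TPM), Rpl41 (2153 TPM), Rpl17 (1667 TPM), Rpl13a (1564 TPM), Rps25 (1353 TPM), Rps27 (1249 TPM), Rplp1 (1184 TPM) and Rps18 (1108 TPM). Rpl41 encodes the smallest ribosomal protein, and Rplp1 a protein of the stalk that recruits translation factors. The 8 lowest were Rps23rg1 (2.39 TPM), Rps4l (12.1 TPM), Rps19bp1 (13 TPM), Rpl12 (19.1 TPM), Rpl7l1 (24.9 TPM), Rpl5 (34.9 TPM), Rpl22l1 (104 TPM) and Rpl27 (110.3 TPM). Of these, Rps19bp1 encodes a protein that binds RPS19, and Rpl7l1 a ribosome assembly factor related to RPL7, so neither name stands for a core ribosome component. The range from the lowest member, Rps23rg1, to the highest, Rps24, was 906-fold. Its size rests on Rps23rg1, since the next lowest, Rps4l, was at 12.1 TPM.

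**Figure D1:**
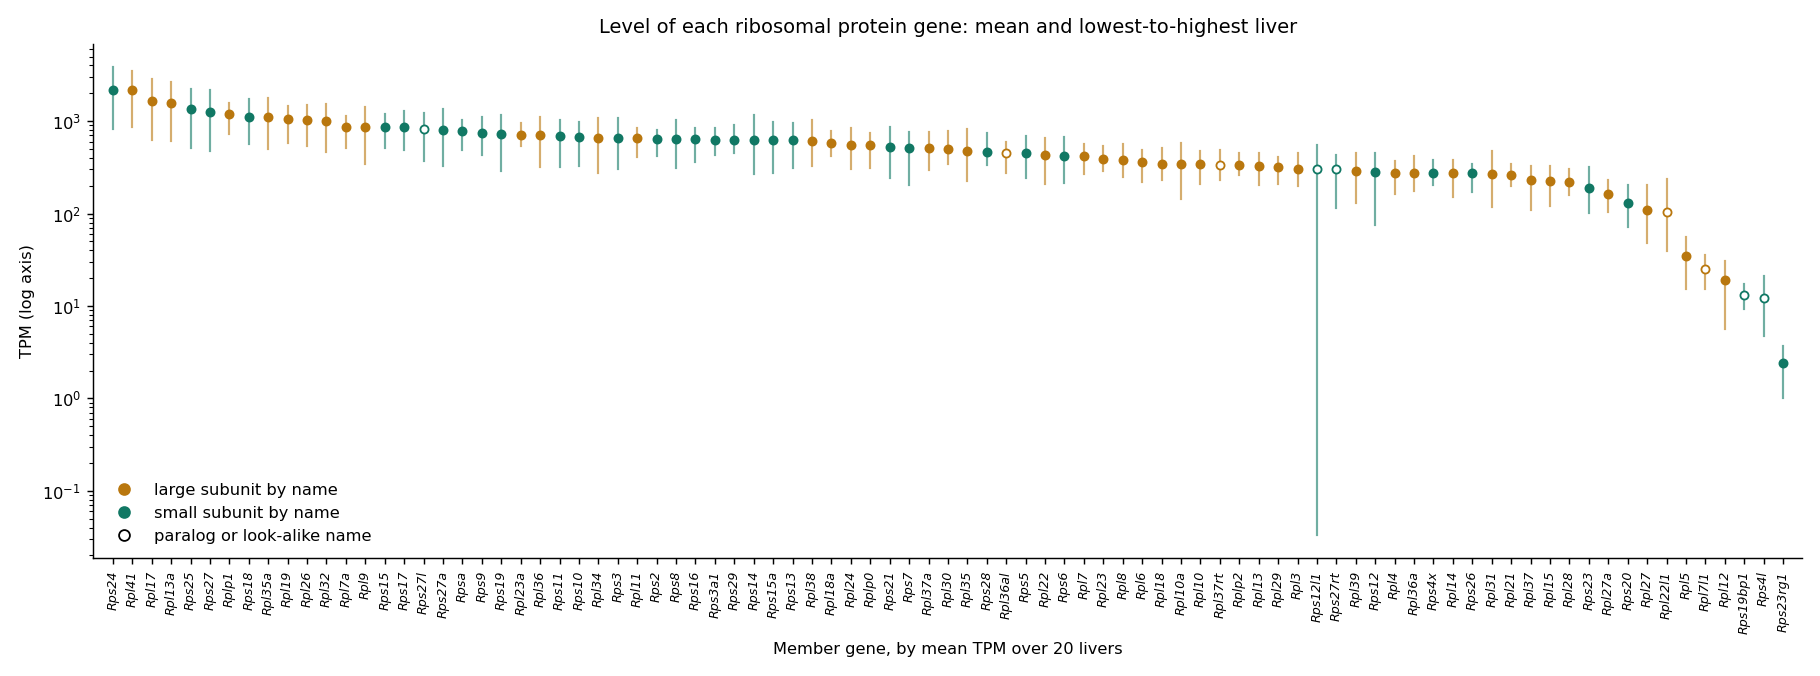
Mean TPM of each of the 87 member genes over the 20 libraries (points, log axis), ordered by mean, with a line from the lowest to the highest library; colour separates large-subunit from small-subunit names and open points are paralogs or look-alikes. The middle of the distribution lies between the quartiles of 288 and 709 TPM, with a tail of low names at the right end, and the line of Rps12l1 reaches furthest down.

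By role, the stalk base Rplp0 had a mean of 551 TPM and its partner Rplp2 339 TPM. Rps6, the substrate of the S6 kinases, had 425 TPM, Rpsa, which also serves as a laminin receptor precursor, 774 TPM, and Rps3, which lines the mRNA entry channel, 655 TPM. Rpl3, near the peptidyl transferase centre, had 302 TPM, and Rpl10, which joins the large subunit late, 340 TPM. Rpl11, which with Rpl5 and 5S rRNA can bind and inhibit Mdm2, had 652 TPM. Rps27a, made as a fusion with ubiquitin, had 794 TPM, and Rps14 and Rps19, both mutated or lost in human anaemias, had 630.4 and 733 TPM. The levels of these core members thus lay within a few-fold of each other, apart from Rpl5. Rpl22, whose protein is dispensable for the ribosome, had 433 TPM.

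Near-identical copies elsewhere in the genome held counts beside those of several members. Of 988 annotated gene models searched, 74 matched a member transcript at 95% identity or more over 80% or more of their length, 45 of them under names without -ps, and they belonged to 46 members. Together the copies held 13.8% of the summed counts of members and copies, and for 9 members the copies held more counts than the member. Gm15500, whose model is 100% identical to Rpl5, had a mean of 13917 counts per library against 935 for Rpl5, so that Rpl5 with its copies stood at 1035 TPM. Rpl12 with its copies, mainly Gm10275, stood at 647 TPM, and Rpl27a with Gm7536 at 1239 TPM. The copies' percent of the sum was 93.7 for Rpl5, 94.1 for Rpl12, 76 for Rpl27, 73.6 for Rps12, 70.4 for Rpl27a, 62.5 for Rps23, 57.7 for Rpl10, 53.4 for Rps6 and 50 for Rpl31. The low places of Rpl5, Rpl12 and Rpl27 in the order of levels are therefore uncertain, and reads of a gene and its copy cannot be told apart here. For the 78 members not counted as paralogs or look-alikes by name, adding copies to their parents narrowed the ratio of the upper to the lower quartile from 2.39 to 1.89. These 78 include Rps23rg1, the lowest member.

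Rps12 has a look-alike, Rps12l1, besides its copies. The TPM of Rps12l1, listed as a processed pseudogene, was 164, 527, 251, 429 and 527 in vehicle, 433, 253, 3.26, 201 and 21.2 in rosuvastatin, 162, 423, 478, 361 and 329.9 in GGOH, and 395, 554, 280.1, 231 and 0.0332 in the combination, in library order 1 to 5. Its lowest libraries, rosuvastatin 3, rosuvastatin 5 and combination 5, held 11, 79 and 0 counts, while the others held 500 to 2765. Rps12l1 had the largest SD within groups of any member, 2.73 on the log2 CPM scale. The SD within groups of log2 CPM with 0.5 added was 2.34 for Rps12l1, 0.89 for Rps12, 0.84 for the copy Rps12-ps3 and 0.79 for the sum of the 3, whose TPM ranged from 664 to 2265. The sum thus varied less between libraries than Rps12l1 did, and nearly as much as Rps12 and Rps12-ps3; whether reads moved between these sequences was not tested.

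The other paralogs or look-alikes that share a pair name varied over narrower ranges than Rps12l1, which made up 0.0159 to 77.1% of the TPM of its pair with Rps12. Rpl22l1, the paralog of Rpl22, made up 14.5 to 26.4% of the TPM of the pair across libraries, and its group means were 17.2 ± 3.08% in vehicle, 20.6 ± 4.29% in rosuvastatin, 18.9 ± 4.34% in GGOH and 18.1 ± 3.61% in the combination (SD, n = 5). Rps27l, induced by p53, made up 33.7 to 50.5% of the pair with Rps27. Rpl36al held 55.7 to 65.5% of its pair with Rpl36a. The copy Rpl36a-ps2, 100% identical to Rpl36a and with a mean of 157 TPM, was outside that pair. Rpl37rt, listed as a transcribed processed pseudogene, held 51.7 to 70.5% of its pair with Rpl37. How reads were divided between such similar sequences was not tested. Rps27rt made up 9.71 to 28.2% of its pair with Rps27, Rpl7l1 3.93 to 7.8% beside Rpl7, and Rps4l 1.81 to 6.71% beside Rps4x. For each of these 7 paralogs or look-alikes the values of the 4 groups overlapped.

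The share of each library's counts that fell in the 87 members was 1.24, 3.47, 1.94, 3.09 and 3.22% in vehicle 1 to 5 and 2.48, 2.75, 1.63, 3.44 and 2.75% in rosuvastatin 1 to 5. In GGOH 1 to 5 it was 3.65, 2.66, 2.29, 3.23 and 2.24%, and in combination 1 to 5 it was 2.59, 2.7, 1.53, 2.37 and 3.01%. The lowest library, vehicle 1, and the library with the second highest share, vehicle 2, were thus in the same group, and vehicle 3, rosuvastatin 3 and combination 3 were also low. The group means were 2.59 ± 0.956% in vehicle, 2.61 ± 0.655% in rosuvastatin, 2.82 ± 0.612% in GGOH and 2.44 ± 0.56% in the combination (SD, n = 5), and all 4 groups overlapped. Of the variance of the members' mean log2 CPM, 3.82% lay between the groups and the rest between libraries of a group. On the TPM scale the share ran from 2.77 to 7%, with group means of 4.87, 5.08, 5.41 and 4.69% in the same order. In bulk liver RNA, fewer cells of a type and less RNA per cell cannot be told apart.

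The summed levels of cell type marker lists had r from -0.544 to 0.555 with the members' mean. The summed CPM of 7 of 7 hepatocyte markers had r of -0.434 with the members' mean over the 20 libraries and was highest in vehicle 1; it was 48188 to 100701 in vehicle, 53639 to 83199 in rosuvastatin, 58567 to 70929 in GGOH and 46052 to 89984 in the combination. For 5 of 5 sinusoidal endothelium markers r was -0.544, with sums of 105 to 163 CPM in vehicle, 128 to 180.2 in rosuvastatin, 115 to 129.6 in GGOH and 118 to 175 in the combination. For 5 of 5 neutrophil markers r was 0.523, with sums of 3.87 to 25.1, 10.2 to 17.7, 6.36 to 42.1 and 5.43 to 20.7 CPM in the same order of groups. Of 4 pancreatic acinar markers, Cpa1 and Pnlip were at 0 in every library and the other 2 summed to 10.2 to 18.6 CPM, with r of 0.555. The remaining lists had r of 0.462 (erythroid), -0.453 (cholangiocyte), 0.318 (B cell), -0.272 (adipocyte, with Lep at 0) and -0.265 (proliferating cell). They also had r of -0.22 (stellate cell), -0.141 (T cell) and 0.081 (Kupffer cell). In each of these lists the groups overlapped, and the part of cell composition in the members' levels was not tested.

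**Figure D2:**
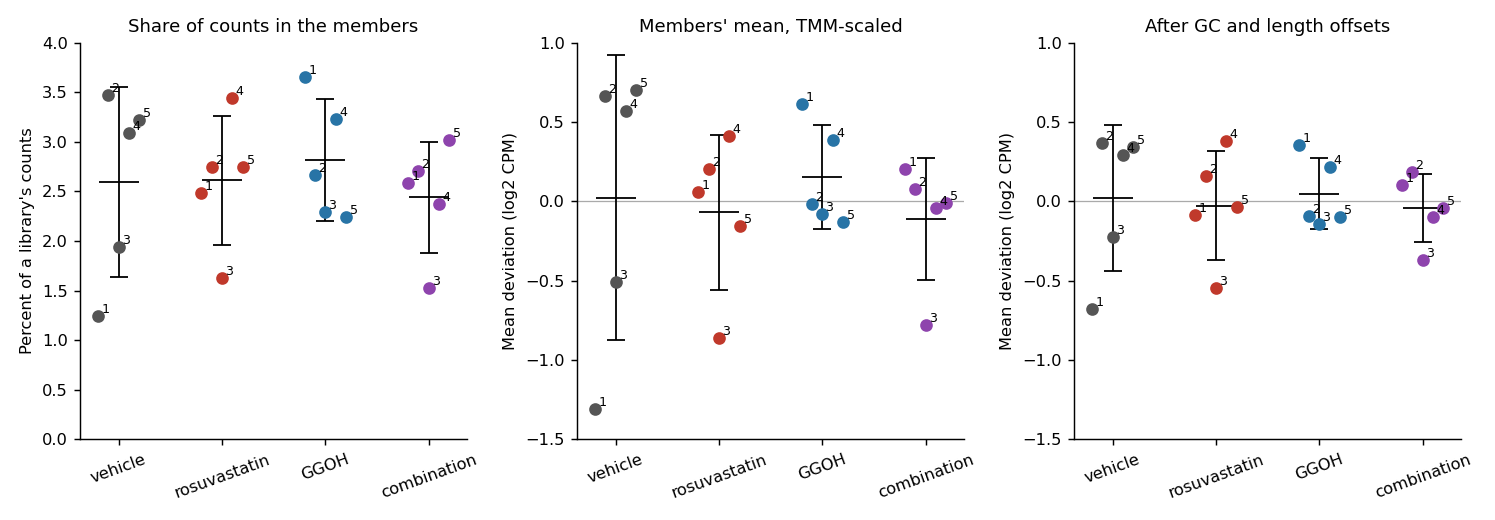
Values for each library by group, with the library number beside each point and a bar for the group mean and SD (n = 5): the percent of counts in the members, the members' mean deviation in log2 CPM, and that deviation after offsets for GC content and length. Vehicle 1 is lowest in all 3 panels, at 1.24% of counts, and the spread narrows from the middle to the right panel.

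Taken as a mean over the members of log2 CPM, with library sizes scaled by the TMM method (trimmed mean of M-values), the libraries deviated from the mean of all 20 by -1.31 in vehicle 1, -0.86 in rosuvastatin 3, -0.78 in combination 3 and -0.51 in vehicle 3. The deviation was 0.70 in vehicle 5, 0.66 in vehicle 2 and 0.61 in GGOH 1. All 87 members were below their own mean in vehicle 1 and in rosuvastatin 3, 86 in vehicle 3 and 84 in combination 3. Vehicle 1 was the lowest library of 78 members, while the highest was vehicle 2 for 29, vehicle 5 for 26 and GGOH 1 for 14. The SD of this mean between libraries of a group was 0.57, which gives a standard error of 0.36 for a difference of 2 groups of 5. The large-subunit members took 53 to 57% of the members' TPM in every library, so both subunits were low or high in the same libraries.

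Single members show the size of this spread. Rps24 (chr14:24487125-24496959, GRCm38) had CPM values of 224, 2158, 539.6, 1544 and 1641 in vehicle, 861, 1011, 288, 1177 and 623 in rosuvastatin, 1569, 842, 859.9, 1397 and 749.7 in GGOH, and 926, 1088, 348, 729 and 710.4 in the combination. Vehicle 1 and vehicle 2 were its lowest and highest libraries. Rpl41 had 200.3, 1668, 430.3, 1086 and 1258 CPM in vehicle, 749, 820.5, 375, 1072 and 614 in rosuvastatin, 1387, 658, 584, 1109.5 and 598 in GGOH, and 779.7, 867, 361, 639 and 786 in the combination. Rplp0 had 265, 981, 385, 718 and 948 CPM in vehicle, 674, 659, 413, 609 and 445 in rosuvastatin, 903, 510.1, 517, 757 and 493 in GGOH, and 679, 429, 299, 539 and 663 in the combination. These 3 genes were lowest in vehicle 1, and their 4 groups overlapped. Rps6 had 107, 390.1, 209, 494 and 512 CPM in vehicle, 307, 359, 167, 497 and 325 in rosuvastatin, 584, 299.9, 245, 345 and 311 in GGOH, and 352, 339.9, 188, 275 and 369.6 in the combination. Its groups overlapped as well, with mean levels of 376 ± 111 TPM in vehicle, 459 ± 136 TPM in rosuvastatin, 452 ± 135 TPM in GGOH and 411 ± 113 TPM in the combination (SD, n = 5).

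Rpl4 (chr9:64173375-64178666) had the smallest SD within groups of any member on TMM-scaled log2 CPM, 0.24. Its CPM was 319, 318, 353, 436 and 488 in vehicle, 404, 428, 370.4, 321 and 406 in rosuvastatin, 424, 398, 433, 424 and 387 in GGOH, and 489, 275, 335, 459 and 444 in the combination. It followed the other members little: vehicle 1 and vehicle 2, which differed 9.64-fold in the CPM of Rps24, were at nearly the same CPM of Rpl4, while its TPM was 334 in vehicle 1 and 165 in vehicle 2. The order depends on the scale, since the smallest SD was that of Rplp2 on log2(TPM + 1), 0.18 against 0.31 for Rpl4, and that of Rpl23 after offsets for GC content and length, 0.13 against 0.18 for Rpl4. On TMM-scaled log2 CPM the next smallest SDs were those of Rpl28 (0.27), Rps19bp1 (0.29), Rps26 (0.30) and Rps2 (0.30). After Rps12l1, the largest were those of Rpl22l1 (0.93), Rps12 (0.90), Rps24 (0.89) and Rpl17 (0.88). The median over members was 0.60, against 0.39 over all 12789 genes tested.

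**Figure D3:**
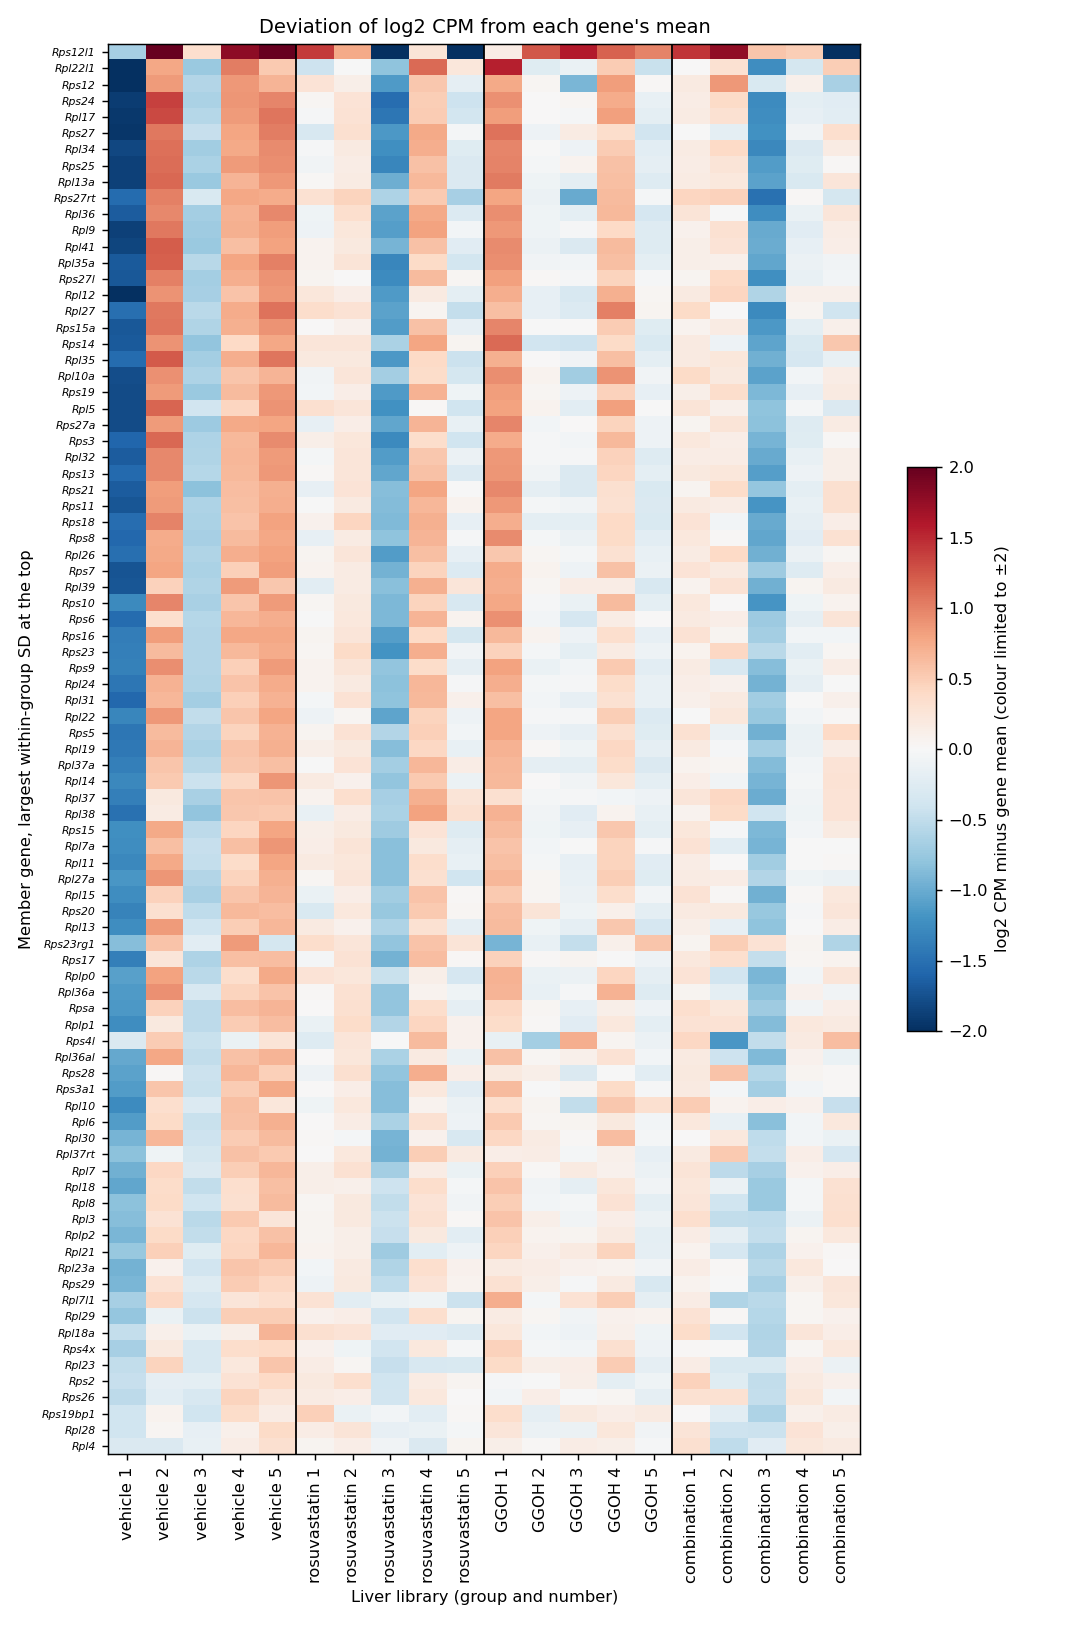
Heat map of the deviation of log2 CPM from each gene's own mean (colour, limited to 2 either way) for the 87 members in rows, the most variable at the top, and the 20 libraries in columns by group. Vehicle 1, rosuvastatin 3 and combination 3 form low columns through nearly all rows, and Rps12l1, Rpl4 and Rps4l depart from the pattern.

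The members varied together from library to library within groups. After group means were removed, the median correlation of log2 CPM between 2 members over the 20 libraries was 0.918, with an interquartile range of 0.789 to 0.96 over 3741 pairs, against 0.001 between pairs of all genes tested. Without vehicle 1 the members' median was 0.869, and without vehicle 1, rosuvastatin 3 and combination 3 it was 0.811. The points of each correlation share a library, its depth and its base composition. The members that followed the others least were Rps12l1 (r = 0.313), Rps4l (0.337), Rpl4 (0.348), Rps23rg1 (0.434) and Rps19bp1 (0.601), where r is with the mean of the other members. Of these, Rps12l1, Rps4l and Rps19bp1 are look-alikes by name.

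Genes outside the list followed the members as closely. Of 10412 genes ranked by their correlation with the members' mean over the 20 libraries, the highest were Uqcr10, Mrpl14, Cox7b, Cox7a2, Tmem242, Mettl23, Ndufb4, Naca, Ndufb6 and Psma3, with r of 0.988 to 0.991. Uqcr10, Cox7b, Cox7a2, Ndufb4 and Ndufb6 encode subunits of the respiratory chain, Mrpl14 a mitochondrial ribosomal protein, and Naca a chaperone at the ribosome exit tunnel. Among the first 100 were 24 nuclear respiratory chain genes, 10 mitochondrial ribosomal protein genes, 5 translation genes and 6 copies of members. The median transcript length of the first 100 was 745 nt. At the other end, Slc39a9 had r of -0.961 and Acox2, a peroxisomal oxidase of bile acid synthesis, -0.96.

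Translation genes that are known for TOP messages split into those that followed the members and those that did not. Of the 20 tested, 12 had r above 0.7 with the members' mean, among them Naca (0.988), Eif3e (0.987), Eef1b2 (0.986) and Tpt1 (0.976), and their median length was 1303 nt. A further 6 had r below 0, with a median length of 2608 nt, among them the elongation factor Eef2 (-0.811), the poly(A)-binding protein Pabpc1 (-0.795) and Eif4b (-0.702). Of 29 ribosome assembly genes, 20 had r below 0, with a median length of 3062 nt. Of 17 growth control genes of the mTORC1 and Myc pathways, 14 had r below 0, with a median length of 3452 nt, including Larp1 (-0.758) and Rptor (-0.833). Fau, which encodes a ribosomal protein joined to a ubiquitin-like protein but falls outside the name rule, had r of 0.946.

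Values of members were also set beside their transcript length and GC content. The median length of members was 764 nt, with a range of 345 to 5130 nt, against 2636 nt for the genes tested, and 68 members were shorter than 1000 nt. Length was the median over a gene's annotated transcripts, which need not be those expressed in these livers. The longest, 5130 nt, was that of Rps15a, whose SD within groups was 0.77 before and 0.86 after the offsets for GC content and length. The members' median GC content was 51.7%, against 50.2%. The 26 members under 600 nt had a median SD within groups of 0.72 on the log2 CPM scale, the 42 of 600 to under 1000 nt 0.62 and the 18 of 1000 nt or more 0.56. When smooth trends with GC content and length were removed from each library as offsets, these became 0.40, 0.41 and 0.41. The SD of the members' mean fell from 0.57 to 0.33 and its range over libraries from 2.01 to 1.05. The deviation was then -0.68 in vehicle 1 and -0.54 in rosuvastatin 3, which were still the lowest, and the median correlation between members was 0.681.

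The same trends can be read from the other genes of each library. The GC trend is the correlation, across genes that are not members, of a library's deviation from each gene's mean with GC content, and the length trend is that with log2 length. Over the 20 libraries the members' mean had r of -0.763 with the GC trend (Spearman -0.692, r of -0.818 without the 2 farthest libraries, and -0.85 with group means removed). With the length trend it had r of -0.728 (Spearman -0.696, r of -0.591 without the 2 farthest, combination 3 and vehicle 1, and -0.718 with group means removed). With the share of mitochondrially encoded transcripts it had r of -0.217 and with total counts 0.013. The GC trend was 0.33 in vehicle 1 and 0.15 in vehicle 3, and -0.33, -0.33 and -0.26 in vehicle 2, 4 and 5. It was above 0 in all 10 libraries with rosuvastatin, from 0.02 to 0.29, and below 0 in 4 of 5 GGOH libraries, with group means of -0.09 in vehicle, 0.13 in rosuvastatin, -0.18 in GGOH and 0.14 in the combination. Its part in the members' values was not tested beyond the offsets.

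**Figure D4:**
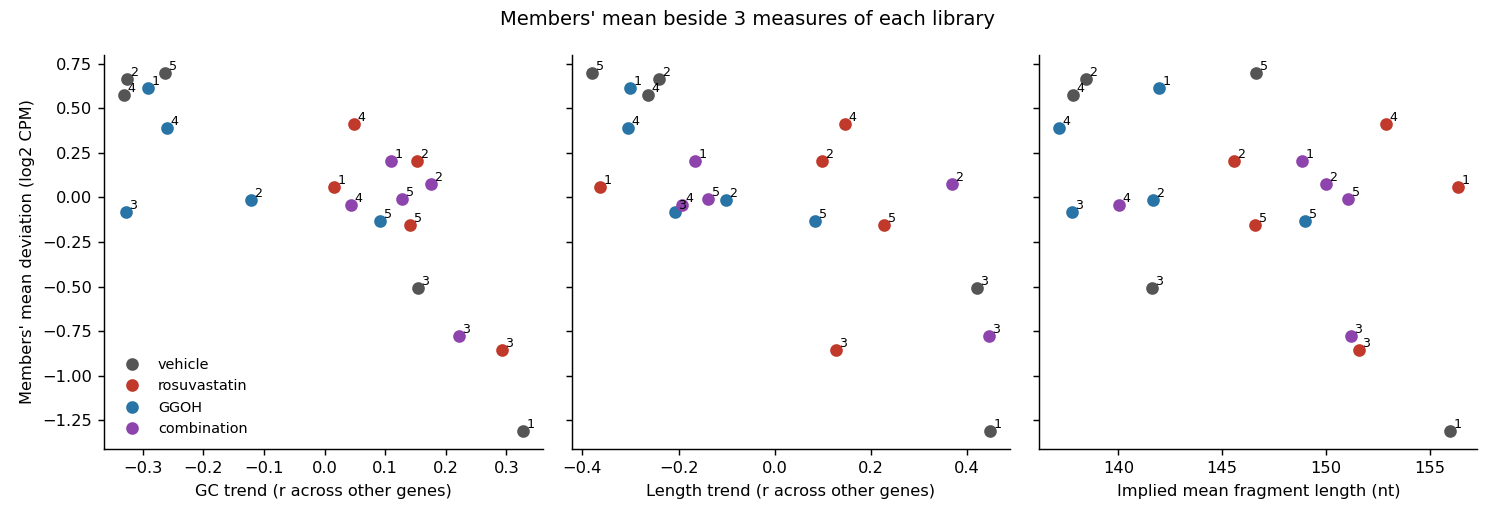
The members' mean deviation in log2 CPM (vertical axis) against the GC trend, the length trend and the implied mean fragment length in nt of each library, coloured by group with the library number. Libraries in which GC-rich or long genes were high had low members, with r of -0.763 and -0.728, while fragment length had r of -0.479.

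A further library measure, the mean fragment length, was implied by the ratio of each gene's deposited count to its TPM. It was 156, 138, 142, 138 and 147 nt in vehicle, 156, 146, 152, 153 and 147 nt in rosuvastatin, 142, 142, 138, 137 and 149 nt in GGOH, and 149, 150.0, 151, 140.0 and 151 nt in the combination. Averaged over GGOH, the libraries with rosuvastatin exceeded those without by 6.61 nt, with a two-sided exact permutation p of 0.0159 over 63504 assignments and 0.112 after adjustment over 7 comparisons; the other 6 comparisons had adjusted p of 0.25 to 0.556. The members' mean had r of -0.479 with it (Spearman -0.332), and -0.348 without vehicle 1. A transcript of the members' median length kept 79.7 to 82.2% of its length as places a fragment could start. The part of fragment length in the members' levels was not tested.

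Across the treatments, no member passed an adjusted p of 0.05 in any of 8 comparisons. The test was edgeR's quasi-likelihood test on all 12789 genes with Benjamini-Hochberg adjustment, and the percent of all genes called was 0% in 7 comparisons and 0.00782% (1 gene, not a member) for GGOH averaged over rosuvastatin. Neither DESeq2 nor limma-trend on log2 TPM called a member in any comparison, and the 34 or 35 alternative settings run for each comparison called none. Members' standard errors had a median of 0.34 on the log2 scale for a difference of 2 groups, 0.24 for an average over groups and 0.47 for the interaction. A member at about 2 standard errors, Rpl21 for rosuvastatin averaged over GGOH, had an edgeR adjusted p of 0.344. Because members varied together within groups (median r of 0.918), the counts of members below 0 given next are not counts of separate observations. The standard error of the members' mean for a difference of 2 groups of 5 was 0.36. The members' medians for 2 groups were -0.28 to -0.02.

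Rosuvastatin against vehicle addresses the effect of the statin alone. The fitted log2 fold changes of the members had a median of -0.20, and 72 of 87 were below 0, where 52.7% of all genes were below 0 and their median was -0.02. None had an unadjusted p under 0.05, against 3.69% of all genes. The members with the smallest p were Rpl30 (-0.41 ± 0.26, SE; edgeR adjusted p = 0.973), Rpl21 (-0.35 ± 0.23) and Rpl23 (-0.29 ± 0.20), all large-subunit proteins. Their intervals at 95% ran from -0.93 to 0.11, from -0.81 to 0.11 and from -0.69 to 0.10. The members' median moved with single vehicle libraries, from -0.40 without vehicle 1 to -0.03 without vehicle 2. With GC and length offsets it was -0.08, with 53 of 87 below 0. On the log2(TPM + 1) scale the direction turned, with a median of 0.16 and 69 members above 0, where the median of all genes was 0.11.

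GGOH against vehicle gave a median of -0.02 over the members, with 53 of 87 below 0 beside 53.1% of all genes, and none had an unadjusted p under 0.05, against 2.86% of all genes. The members with the smallest p were Rpl7l1 (0.24 ± 0.23, SE), Rps19bp1 (0.16 ± 0.19) and Rpl4 (0.11 ± 0.17), with an edgeR adjusted p of 1.000 for each of them. The median had no stable sign: it was -0.23 without vehicle 1 and 0.13 without vehicle 2, and also above 0 without vehicle 4, vehicle 5, GGOH 2, GGOH 3 or GGOH 5. On the log2(TPM + 1) scale it was 0.20, with 84 members above 0.

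The combination against rosuvastatin asks what GGOH added to the statin. The members' median was -0.07, with 69 of 87 below 0 beside 47.4% of all genes, and none had an unadjusted p under 0.05, against 1.69% of all genes. Rpl10 (0.21 ± 0.28, SE), Rps12l1 (0.68 ± 0.97) and Rpl24 (-0.22 ± 0.34) had the smallest p, with an edgeR adjusted p of 1.000. When copies were added to their parents, Rpl10 turned to -0.13. The median was -0.23 without rosuvastatin 3 and 0.08 without combination 3 or without rosuvastatin 4. It was -0.04 with GC and length offsets and -0.13 on the log2(TPM + 1) scale. Combination 2 and combination 3 held 27.9 and 29.2% of their counts in mitochondrially encoded transcripts, against 8.06 to 17.1% elsewhere, and without these and vehicle 1 the median was 0.07. The part of the mitochondrial share was not tested further.

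The combination against vehicle gave a median of -0.28 over the members, and 78 of 87 were below 0 beside 49.2% of all genes, while none had an unadjusted p under 0.05, against 5.5% of all genes. The members with the smallest p were Rpl35 (-0.64 ± 0.40, SE), Rpl36al (-0.45 ± 0.29) and Rpl35a (-0.63 ± 0.41), with an edgeR adjusted p of 0.817, and their intervals at 95% ran from -1.43 to 0.15, from -1.01 to 0.11 and from -1.44 to 0.18. The median was -0.48 without vehicle 1 and -0.09 without vehicle 2. On the log2(TPM + 1) scale it was 0.01, with 45 members above 0, and with GC and length offsets it was -0.11. This comparison shares the vehicle libraries with the rosuvastatin and the GGOH comparison.

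The combination against GGOH asks what the statin did in livers that also received GGOH. The members' median was -0.25, and 79 of 87 were below 0 beside 49.1% of all genes. None had an unadjusted p under 0.05, although 14% of all genes did. Rpl7l1 (-0.40 ± 0.23, SE; edgeR adjusted p = 0.389), Rpl21 (-0.35 ± 0.23; 0.454) and Rpl23 (-0.28 ± 0.20; 0.476) had the smallest p. This comparison kept its sign without each library in turn, from -0.34 to -0.10. So did rosuvastatin against vehicle, the combination against vehicle and rosuvastatin averaged over GGOH. On the log2(TPM + 1) scale the median of the combination against GGOH was -0.19. With GC and length offsets the median was -0.08, and Rpl23 turned to 0.05.

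**Figure D5:**
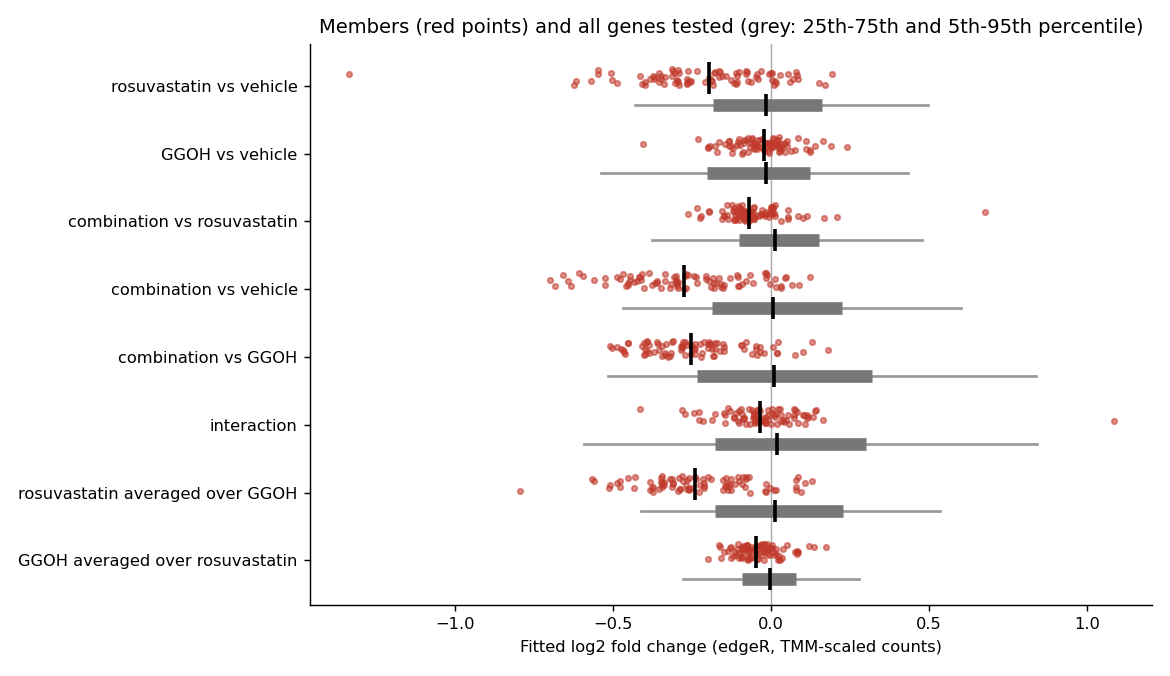
Fitted log2 fold changes of the 87 members (red points, with the median as a black bar) in the 8 comparisons, beside the distribution over all genes tested (grey, thick line from the 25th to the 75th and thin line from the 5th to the 95th percentile). The members' medians lie between -0.28 and -0.02, inside the thin lines of all genes, and Rps12l1 gives the most distant point in 5 of the 8 comparisons.

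Rosuvastatin averaged over GGOH combines both pairs of groups that differ in the statin. The members' median was -0.24, with 78 of 87 below 0 beside 48.2% of all genes, and it ran from -0.34 without vehicle 1 to -0.14 without vehicle 5. With GC and length offsets it was -0.08, with 60 below 0. Rpl21 was the 1 member with an unadjusted p under 0.05, against 14.4% of all genes. It had a log2 fold change of -0.35 ± 0.17 (SE), with p of 0.0486 and an edgeR adjusted p of 0.344. Rpl23 (-0.29 ± 0.14; adjusted p = 0.350) and Rpl30 (-0.37 ± 0.19; adjusted p = 0.351) came next. The members' share past the unadjusted threshold was thus below that of all genes in the contrast in which most genes passed it. On the log2(TPM + 1) scale the median was -0.04, with 51 members below 0.

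The values by library were as follows. Rpl21 (chr5:146832890-146837032) had 141, 332, 202, 322 and 378 CPM in vehicle, 249.7, 257, 145, 206 and 223 in rosuvastatin, 322, 257, 270.0, 326 and 210.4 in GGOH, and 250.1, 189, 156, 253 and 241 in the combination. Vehicle 1 had the lowest and vehicle 5 the highest CPM of Rpl21, so the groups overlapped. In TPM the mean of Rpl21 was 259 ± 20.6 in vehicle, 251 ± 36.1 in rosuvastatin, 293 ± 42.6 in GGOH and 246 ± 52 in the combination (SD, n = 5). Rpl23 (chr11:97777527-97782437) had 201, 384, 226, 328 and 415 CPM in vehicle, 314, 291, 206, 227 and 229.8 in rosuvastatin, 368, 306, 311, 403 and 250.4 in GGOH, and 313, 228, 230.0, 312 and 262 in the combination. Rpl30 (chr15:34440505-34443640) had 99.1, 302, 142, 269 and 294 CPM in vehicle, 193, 185, 100.0, 202 and 152 in rosuvastatin, 252, 213, 193, 293 and 185 in GGOH, and 191, 219, 133, 182 and 174 in the combination. Both were lowest in vehicle 1, and their groups overlapped.

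The numbers of members and of all genes past the unadjusted threshold both rose when vehicle 1 was left out. Without it, 9 members passed in rosuvastatin against vehicle, beside 13.6% of the 12912 genes then tested, and 14 passed in the combination against vehicle, beside 17.1%. For rosuvastatin averaged over GGOH, 20 members passed, all with values below 0, beside 29.4% of all genes. With vehicle 1 kept, 3.69, 5.5 and 14.4% of all genes had passed in these comparisons. In each of the 3 fits without vehicle 1, the members' share past the threshold was below that of all genes. The members' medians were then -0.40, -0.48 and -0.34, where the medians of all genes were 0.04, 0.05 and 0.03. No member and no other gene passed the adjusted threshold in these 3 fits, and the smallest adjusted p of a member was 0.0967. That vehicle 1 was an extreme library was seen in these data and not from its label.

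GGOH averaged over rosuvastatin gave a median of -0.05 over the members, with 66 of 87 below 0 beside 51.6% of all genes, and none had an unadjusted p under 0.05, against 1.7% of all genes. Rpl10 (0.17 ± 0.20, SE), Rpl7l1 (0.12 ± 0.16) and Rps18 (-0.20 ± 0.27) had the smallest p, with an edgeR adjusted p of 1.000. The interaction, which asks whether the effect of GGOH differed with rosuvastatin, had a median of -0.03, with 55 of 87 below 0 beside 47.7% of all genes and no unadjusted p under 0.05, against 2.89%. Its smallest p belonged to Rps19bp1 (-0.28 ± 0.27, SE), Rps12l1 (1.09 ± 1.37) and Rpl7l1 (-0.24 ± 0.32), with an edgeR adjusted p of 0.999. On the log2(TPM + 1) scale the medians were 0.04 and -0.32. Both changed sign with single libraries: GGOH averaged over rosuvastatin ran from -0.15 without vehicle 1 to 0.03 without combination 3, and the interaction from -0.19 without rosuvastatin 3 to 0.16 without vehicle 1.

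Genes of the pathways around the ribosome also gave no call. In each of the 8 comparisons, 0 of 20 translation genes, 0 of 29 assembly genes, 0 of 17 growth control genes, 0 of 79 mitochondrial ribosomal protein genes and 0 of 76 nuclear respiratory chain genes passed the adjusted threshold of edgeR's quasi-likelihood test. For rosuvastatin averaged over GGOH, 16 translation genes had values below 0 with a median of -0.22, and 70 mitochondrial ribosomal protein genes with a median of -0.20. Of the respiratory chain genes, 70 had values below 0 with a median of -0.22. Without adjustment, 1 translation gene, 11 mitochondrial ribosomal protein genes and 5 respiratory chain genes passed with values below 0, and 1 mitochondrial ribosomal protein gene with a value above 0, against 14.4% of all genes. Of the assembly genes, which make and modify pre-ribosomal RNA, 16 had values below 0 with a median of -0.05, and 4 below and 1 above 0 passed without adjustment. Growth control genes differed in direction, with 13 of 17 above 0, a median of 0.27 and 3 past the unadjusted threshold. That list mixes genes that promote and genes that restrain growth, so the count gives no direction of a pathway. The part of transcript length and GC content in the values of these lists was not tested. The members' median was -0.24 in this contrast. Large-subunit members had a median of -0.25 and small-subunit members of -0.21.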

How the data were processed

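Poly(A)-selected liver RNA was sequenced as paired-end 100-bp reads on an Illumina NovaSeq instrument, per the labels' protocols. The submitters' processing notes name bcl2fastq 2.19, kallisto 0.44.0 and DESeq2, with the build GRCm38. The authors deposited a table of estimated counts per gene, already whole numbers, and a table of TPM (transcripts scaled for effective length and to a common total per library). How transcripts were summed to genes is not given in the sources used here. One entry had no gene name, held 0.008 to 0.016% of a library's counts and was left out.

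Each of the 8 comparisons came from 1 model of 4 group means over all 20 libraries, fitted by edgeR 4.0.16 in R 4.3.3 (TMM, filterByExpr, quasi-likelihood F test, Benjamini-Hochberg adjustment over 12789 genes, threshold 0.05), and the members' rows were read from it. Averaged comparisons give both pairs of groups equal weight. CPM values are TMM-scaled. Alternatives were DESeq2 1.42.0, its size factors, limma-trend (limma 3.58.1) on log2(TPM + 1) and log2(TPM + 0.1), no filter or a CPM filter, offsets for GC content and length (smooth trends per library), the replicate number as a block, and libraries left out. Adding copies to their parents, and leaving out vehicle 1, rosuvastatin 3 and combination 3 together, were chosen after seeing the data. Length and GC content came from GENCODE mouse release M21 transcripts for 86 members. Copies were found with blastn 2.17.0, and promoter windows came from RefSeq. Models were tested on simulated data. The members, gene lists and tests were chosen with earlier results of these data known. Named were the 8 highest and 8 lowest members, the 5 with the largest and the 5 with the smallest SD, members by role, the 3 smallest p in each comparison and the 10 genes most like the members. Fragment lengths were implied from counts and TPM of genes of at least 1000 nt and 300 counts, and the fit lay within 0.1% for about 92% of them. The precision of the values is set by 5 libraries a group.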

Additional observations from a re-analysis of the deposited data

Results flagged for a closer look

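Within each group of 5, the distance of the most extreme library from its nearest neighbour was compared with the range of the group for 56 sets of values, and 2 exceeded the critical ratio of 0.71. Chance alone flags about 1 set in 20. The members' mean log2 CPM was 6.91 in combination 3, below the 7.65 to 7.89 of the other combination libraries, a ratio of 0.752. Combination 3 also had the fewest counts, 8548120, and the highest share of mitochondrially encoded transcripts, 29.2%, and the part of these in the members' level was not tested. The implied mean fragment length was 140.0 nt in combination 4, below the 148.8 to 151.2 nt of the other combination libraries, a ratio of 0.787, and the members' mean in that library deviated by -0.04 from that of all libraries.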

How the results depend on the processing

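No member passed the adjusted threshold in any alternative, which left the count of 0 unchanged. The group means of the members' share of counts moved to 4.87, 5.08, 5.41 and 4.69% (vehicle, rosuvastatin, GGOH, combination) as percent of TPM, and to 3.00, 3.05, 3.22 and 3.02% without mitochondrially encoded transcripts. Offsets for GC content and length moved the co-variation of members to 0.681, and the r of the members' mean with the GC and length trends to -0.665 and -0.553. Leaving out each library in turn gave share means of 2.37 to 2.93% in vehicle, 2.4 to 2.86% in rosuvastatin, 2.61 to 2.96% in GGOH and 2.3 to 2.67% in the combination, and r of -0.827 to -0.733 with the GC trend and -0.78 to -0.673 with the length trend. Single genes reversed sign in 5 cases, none of them called: Rpl23 in the combination against GGOH with offsets (0.046) and with block and offsets (0.044), Rpl7l1 in the interaction without vehicle 1, combination 2 and combination 3 (0.12), and Rpl10 with copies added in the combination against rosuvastatin (-0.134) and in GGOH averaged over rosuvastatin (-0.048). The causes were not tested.

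Livers share only a number across groups: deviations of 30 same-numbered pairs had a median r of 0.06 (range -0.46 to 0.51), against 0.02 for other pairs, and 5 of 20 libraries correlated best with their own number. With the replicate number as a block the members' medians were -0.19, 0.05, -0.05, -0.26, -0.29, -0.10, -0.27 and 0.00, for rosuvastatin, GGOH against vehicle, the combination against rosuvastatin, vehicle and GGOH, the interaction, and rosuvastatin and GGOH averaged. The block left the count of calls among members at 0, while 5 members passed the unadjusted threshold for rosuvastatin averaged over GGOH, 7 with block and offsets and 6 with offsets alone, against 1 without; of all genes 13.4, 10.3, 11.1 and 14.4% passed in these fits. DESeq2 called 0 members and 0 to 9 genes in each comparison, with 3 members past the unadjusted threshold for rosuvastatin averaged over GGOH, beside 10.9% of all genes. Total counts were 8548120 or more in every library, and members held 37.85 or more on average, and 5 livers a group limit the precision.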

Other observations

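The TMM factors, which set the effective library sizes behind every CPM value, were high in several libraries with low members, with 1.25 in vehicle 1, 1.17 in rosuvastatin 3 and 1.13 in vehicle 3, and low in vehicle 5, 2 and 4, with 0.761, 0.811 and 0.822. They were also high in rosuvastatin 5 (1.22) and combination 5 (1.13), where the members' shares of counts were 2.75 and 3.01%. The median over members of the ratio of the highest to the lowest library was 4.47 on TMM-scaled CPM, 3.3 on unscaled CPM and 2.84 on TPM. The members' mean in log2 CPM and in log2(TPM + 1) had r of 0.898 over 20 libraries, but the order of libraries differed. Vehicle 5 was highest in log2 CPM, with a deviation of 0.70, and was at 0.16 in log2(TPM + 1), where GGOH 1 was highest at 0.43. Combination 5 went from -0.01 to 0.26 and rosuvastatin 5 from -0.15 to 0.18.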
